A study of Mus musculus with 4 samples.

Results

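Mast cell and basophil proteases and mediators were followed as 10 genes, Cpa3, Mcpt4, Mcpt8, Cma1, Tpsb2, Tpsab1, Hdc, Fcer1a, Ms4a2 and Slc18a2, found by exact symbol among the 24497 mouse gene entries of the expression table. RNA-seq had been done on mouse leukemic cells that carry NRAS and AE9a, a truncated AML1-ETO fusion. The cells were derived from bone marrow hematopoietic stem cells of either wild-type (WT) mice or Tet2-/- mice that lack exons 8 to 10 of Tet2, the gene of a 5-methylcytosine dioxygenase. Each group had 2 libraries (n = 2), called WT and knockout-labelled below. Both groups were grown in the same RPMI-based medium with the cytokines SCF (50 ng/ml), IL-6 (10 ng/ml) and IL-3 (10 ng/ml). Selection used puromycin (2 µg/ml) and G418 (1 mg/ml), and no further treatment is labelled. SCF and IL-3 are themselves growth factors of mast cells and basophils. Whether the replicates were separate cultures or mice is not labelled. The p-values therefore reflect only how far these libraries spread, and that spread may be technical.

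Mast cells and basophils store preformed mediators in cytoplasmic granules. There, histamine and serine proteases, the chymases and tryptases, are bound to the proteoglycan serglycin together with the metallopeptidase carboxypeptidase A3. Crosslinking of IgE on the high-affinity receptor FcεRI releases the granules. Histamine is made from histidine by Hdc and loaded into granules by the vesicular monoamine transporter Slc18a2. In the mouse the chymase-like gene Mcpt8 marks basophils, whereas Cma1, Mcpt4 and the tryptases Tpsb2 and Tpsab1 mark connective tissue mast cells, and Cpa3 is shared by both lineages and their progenitors.

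The granule genes split between the groups. The tryptases Tpsb2 and Tpsab1, the chymase Cma1, the histamine-forming enzyme Hdc and the FcεRI β chain Ms4a2 fell in the knockout-labelled libraries, to between 0.115 and 0.468 of the WT mean TPM. Cpa3 rose to 1.23 times the WT mean, and Mcpt8 and Slc18a2 did not pass the test. Mcpt4 and Fcer1a lay below the filter in all 4 libraries and were not tested. Of the 10 genes 8 passed the filter, 1 of them (Tpsab1) only through its WT libraries, so its fall is partly fixed by the filter. Among the 8, 5 were called lower and 1 higher, against 11.6% of all kept genes called lower, 18.9% called higher and 30.5% called in either direction. The same 5 were lower by at least 1 on the log2 scale, as were 1.39% of kept genes. The groups did not overlap for any of the 10 genes, 8 lower and 2 higher, counting Mcpt4 and Fcer1a, which were not kept. Among kept genes 68.6% had groups that did not overlap, and 26.5% were lower without overlap. Over all 10 genes, with the 2 not kept, the median difference in log2(TPM + 1) was -0.81, against a median of 0.04 over all kept genes.

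**Figure D1:**
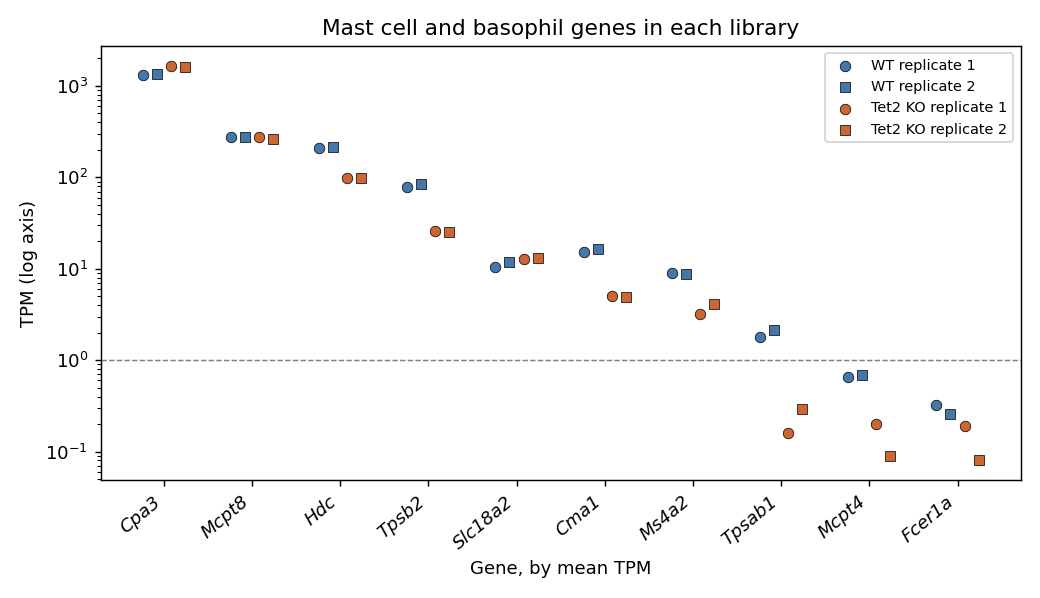
TPM of the 10 genes (log axis, genes ordered by mean TPM) in WT (blue) and knockout-labelled (orange) libraries, circles for replicate 1 and squares for replicate 2; the dashed line is 1 TPM. Cpa3 lies at 1302 TPM or more in all 4 libraries, Hdc, Tpsb2, Cma1, Ms4a2 and Tpsab1 are lower in both knockout-labelled libraries, and Mcpt4 and Fcer1a stay below the line.

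TPM are corrected for length, so levels can be ordered between genes. By mean over the 4 libraries the order was Cpa3 (1485 TPM), Mcpt8 (273), Hdc (155), Tpsb2 (53.5), Slc18a2 (12.0), Cma1 (10.5), Ms4a2 (6.26), Tpsab1 (1.09), Mcpt4 (0.41) and Fcer1a (0.21). Cpa3 ranked 112 of 11837 kept genes by mean TPM. Slc18a2 and Cma1 exchanged places between the groups: Cma1 was the higher of the pair in both WT libraries and Slc18a2 in both knockout-labelled libraries. Tpsab1, Mcpt4 and Fcer1a overlapped each other in the knockout-labelled group, so the place of Tpsab1 above the other two rests on WT. Summed over the 10 genes, TPM came to 1903 and 1980 for WT against 2087 and 2019 for the knockout-labelled libraries. Without Cpa3 the sums were 601 and 614 for WT against 420 and 412 for the knockout-labelled libraries. In TPM as deposited the whole sum was higher through Cpa3, and the other 9 genes together were lower. The call of Cpa3 was lost with spike-in scaling (adjusted p = 0.20), and the sums were not compared under other scalings.

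The tryptases are trypsin-like proteases that are active as heparin-bound tetramers. Tpsb2, which encodes the main mouse mast cell tryptase, mMCP-6, had 77.9 and 84.9 TPM in WT and 25.7 and 25.3 TPM in the knockout-labelled libraries. Both knockout-labelled values were far below both WT values, a 3.19-fold difference of the means. The log2 change was -1.63 (SE 0.053, 95% interval -1.77 to -1.50, adjusted p = 9.7e-05), and 0.600% of kept genes changed by as much in either direction. Tpsab1, which encodes the related tryptase mMCP-7, had 1.79 and 2.13 TPM in WT and 0.16 and 0.29 TPM in the knockout-labelled libraries. Its change was -1.27 (SE 0.15, adjusted p = 0.0036), and this size depended on the pseudocount, from -0.41 with a pseudocount of 5 to -2.69 with 0.1. The longest coding transcripts of the pair are 76.7% identical over aligned bases, and of their 50-base windows none was shared with a transcript of another gene.

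Tpsb2 lies on chromosome 17 from 25366305 to 25369098 and Tpsab1 from 25343245 to 25345562 (GRCm38), inside a cluster of 6 protease genes that spans 76.0 kb. The other tested genes of that cluster, Tpsg1 and Prss34, also fell. Tpsg1, a membrane-anchored tryptase that starts 3.0 kb from the start of Tpsb2, had 8.09 and 8.55 TPM in WT and 3.44 and 3.34 TPM in the knockout-labelled libraries (log2 change -1.09, SE 0.077, adjusted p = 7.6e-04). Prss34, the basophil protease mMCP-11, had 69.9 and 73.4 TPM against 34.4 and 39.2 TPM (-0.95, SE 0.070, adjusted p = 8.7e-04). In that cluster each gene that passed the filter was lower. For Tpsab1, which passed it only through WT, the direction was partly fixed by the filter.

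The chymase cluster on chromosome 14 did not behave as a block. Cma1 (55941451 to 55944675), the chymase mMCP-5 of connective tissue mast cells, had 15.4 and 16.5 TPM in WT and 5.05 and 4.88 TPM in the knockout-labelled libraries. The groups were well apart, with a log2 change of -1.50 (SE 0.068, 95% interval -1.68 to -1.33, adjusted p = 2.2e-04), and the change was -1.07 with a pseudocount of 5. Of the 50-base windows of its transcript 5.38% also occur in Gm48934, as do 5.48% of those of Mcpt4 in Cma2, so the authors' counting could have split a small share of their reads. Mcpt4 (56059629 to 56062313), the chymase mMCP-4, had 0.66 and 0.68 TPM in WT and 0.20 and 0.09 TPM in the knockout-labelled libraries. It was tested only with no filter, where the change was -0.55 (adjusted p = 0.019). Mcpt8 (56082166 to 56085273), the basophil protease mMCP-8, had 278 and 275 TPM in WT and 274 and 266 TPM in the knockout-labelled libraries. Its log2 change of -0.03 (95% interval -0.11 to 0.05, adjusted p = 0.46) did not pass. The interval leaves room for only a small shift in TPM as deposited. Over 16 alternative fits the change ranged from -0.15 to -0.014. The interval does not show that the level was equal.

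Further along the same cluster Ctsg did not pass, and Gzmb and Gzmc were called higher. The cluster holds 15 of the listed protease genes over 320.8 kb, 10 of which did not pass the filter; the mast cell protease genes Mcpt1 and Mcpt9 were listed at 0 in all 4 libraries, and Mcpt2 at 0 in 3 and at 0.09 TPM in knockout-labelled replicate 2. Ctsg, the cathepsin G of neutrophil and mast cell granules, had 2818 and 2923 TPM in WT and 2771 and 2722 TPM in the knockout-labelled libraries. It did not pass (log2 change -0.06, adjusted p = 0.23), although it did with quantile scaling (-0.24, adjusted p = 0.013). Gzmb, the granzyme B of cytotoxic lymphocytes, rose from 8.17 and 8.52 TPM to 20.9 and 21.4 TPM (log2 change 1.24, SE 0.055, adjusted p = 2.1e-04). Gzmc rose from 2.04 and 1.44 TPM to 6.24 and 5.17 TPM (1.30, SE 0.15, adjusted p = 0.0032). Gzmb starts 317.4 kb from the start of Cma1, so the same cluster held genes called lower, not passing and called higher.

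**Figure D2:**
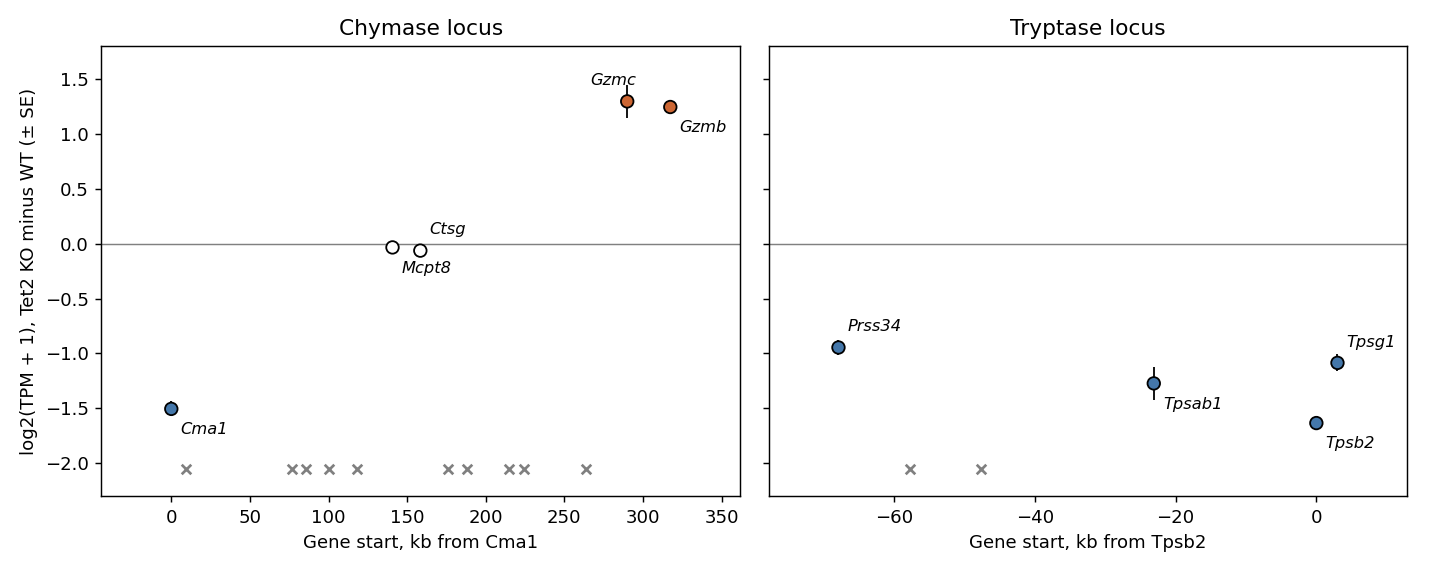
Change in log2(TPM + 1) with its SE for the protease genes of the chymase and tryptase clusters, by the distance of each gene's start from Cma1 or Tpsb2 in kb; blue is lower, orange higher, white not passed, and crosses mark genes below the filter, placed at the bottom with no value. All 4 tested genes of the tryptase cluster are lower, of which Tpsab1 passed the filter only through WT. The chymase cluster runs from Cma1 at -1.50 to Gzmb at 1.24 and Gzmc at 1.30.

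Cpa3, the carboxypeptidase that trims C-terminal residues of peptides such as venom toxins and endothelin, was the most abundant of the 10 genes. It had 1302 and 1366 TPM in WT and 1667 and 1606 TPM in the knockout-labelled libraries. Both knockout-labelled libraries were higher, by a log2 change of 0.29 (SE 0.039, 95% interval 0.20 to 0.39, adjusted p = 0.0052). A change at least this large in either direction was seen in 20.8% of kept genes. The call was lost with spike-in scaling (0.18, adjusted p = 0.20) and without knockout-labelled replicate 1 (0.27, adjusted p = 0.066). Cpa3 lies on chromosome 3 from 20215620 to 20242181.

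The amine genes did not move together. Hdc, histidine decarboxylase, had 208 and 214 TPM in WT and 99.0 and 98.3 TPM in the knockout-labelled libraries, with replicates close and groups far apart. The log2 change was -1.09 (SE 0.034, 95% interval -1.17 to -1.0, adjusted p = 8.9e-05). Slc18a2, the transporter that loads histamine and serotonin into granules, had 10.4 and 11.9 TPM in WT and 12.7 and 13.2 TPM in the knockout-labelled libraries. It was higher in both but did not pass (0.20, 95% interval 0.01 to 0.40, adjusted p = 0.10), except without WT replicate 2 (0.29, adjusted p = 0.041). The ratio of Hdc to Slc18a2 TPM was 20.0 and 18.0 for WT against 7.78 and 7.47 for the knockout-labelled libraries. Hdc lies on chromosome 2 from 126593667 to 126619299, and Slc18a2 on chromosome 19 from 59260896 to 59296012.

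The IgE receptor genes differed in level. Fcer1a, the IgE-binding α chain of FcεRI, had 0.32 and 0.26 TPM in WT and 0.19 and 0.08 TPM in the knockout-labelled libraries. All values were below 1 TPM, and with no filter the change of -0.19 did not pass (adjusted p = 0.15). Ms4a2, the signal-amplifying β chain, had 8.97 and 8.73 TPM in WT and 3.23 and 4.11 TPM in the knockout-labelled libraries. It shares 2.69% of its 50-base windows with Ms4a4b. It fell by 1.08 on the log2 scale (SE 0.11, 95% interval -1.36 to -0.81, adjusted p = 0.0023), or by 0.68 with a pseudocount of 5. The shared γ chain Fcer1g, which other Fc receptors also use, had 376 and 416 TPM in WT and 282 and 287 TPM in the knockout-labelled libraries (log2 change -0.47, SE 0.054, adjusted p = 0.0032). The α chain was thus near 0 in both groups while both of its signalling partners were present and lower. Fcer1a lies on chromosome 1 from 173221284 to 173227214 and Ms4a2 on chromosome 19 from 11615523 to 11623719.

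**Figure D3:**
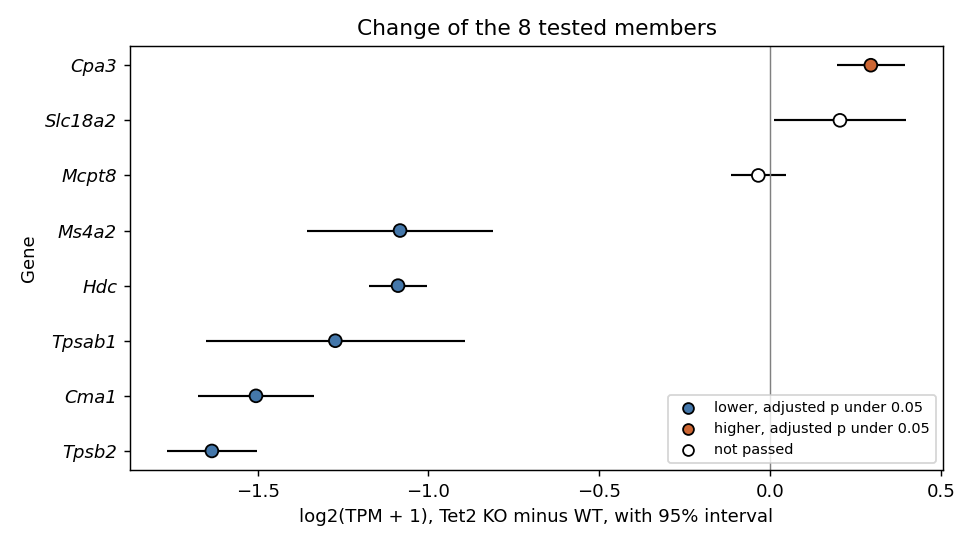
Change in log2(TPM + 1), knockout-labelled minus WT, with the 95% interval from limma for the 8 genes that passed the filter. Tpsb2, Cma1, Tpsab1, Hdc and Ms4a2 lie at -1.08 or below, Mcpt8 lies at -0.03, and Cpa3 at 0.29 is the one called higher.

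Ratios within a library do not depend on its scaling. Tpsb2 was 5.07 and 5.14 times Cma1 in WT and 5.09 and 5.19 times Cma1 in the knockout-labelled libraries, although the pair lie on different chromosomes. Cpa3 was 16.7 and 16.1 times Tpsb2 in WT against 64.8 and 63.4 times Tpsb2 in the knockout-labelled libraries. Mcpt8 was 3.57 and 3.24 times Tpsb2 in WT and 10.6 and 10.5 times in the knockout-labelled libraries. The proportion also differed among genes that fell: Tpsb2 was 0.375 and 0.396 times Hdc in WT against 0.260 and 0.258 times in the knockout-labelled libraries. Tpsb2 was 43.5 and 39.9 times Tpsab1 in WT against 161 and 87.3 times in the knockout-labelled libraries. The last 2 values rest on Tpsab1 at 0.16 and 0.29 TPM. Tpsab1 passed the filter only through WT, so the direction of this ratio was partly fixed by the filter. Of these ratios, that of Tpsb2 to Cma1 was the one that overlapped between the groups. These ratios were chosen after their values were seen and were not tested.

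Promoters are shown for genes that fell together (Cma1, Hdc, Ms4a2) and for Cpa3, which rose, as the 250 bases before the RefSeq start (GRCm38.p6). GATA factors are known regulators of mast cell and basophil genes, and the capitals mark 4 GATA words on either strand: the word AGATAA, its form with a final G, which is AGATAG, and the forms with an initial T, which are TGATAA and, with a final G as well, TGATAG. All 4 lie on the minus strand and are written 5′ to 3′: Cma1 at chr14:55944676-55944925, Hdc at chr2:126618679-126618928, Ms4a2 at chr19:11623720-11623969 and Cpa3 at chr3:20242182-20242431.
Cma1: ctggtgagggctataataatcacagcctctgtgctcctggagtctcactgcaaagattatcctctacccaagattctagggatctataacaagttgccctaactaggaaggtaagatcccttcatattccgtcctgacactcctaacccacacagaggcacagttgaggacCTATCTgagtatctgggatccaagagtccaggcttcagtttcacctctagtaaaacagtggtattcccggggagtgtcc
Hdc: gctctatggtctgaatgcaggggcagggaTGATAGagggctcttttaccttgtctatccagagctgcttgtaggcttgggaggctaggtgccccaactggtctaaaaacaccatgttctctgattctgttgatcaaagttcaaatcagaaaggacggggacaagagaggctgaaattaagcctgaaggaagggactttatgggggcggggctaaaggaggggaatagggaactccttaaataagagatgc
Ms4a2: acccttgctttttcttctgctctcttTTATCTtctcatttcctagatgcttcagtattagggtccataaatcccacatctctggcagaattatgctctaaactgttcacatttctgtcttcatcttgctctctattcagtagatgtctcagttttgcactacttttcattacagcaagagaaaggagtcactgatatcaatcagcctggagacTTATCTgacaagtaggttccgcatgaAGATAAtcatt
Cpa3: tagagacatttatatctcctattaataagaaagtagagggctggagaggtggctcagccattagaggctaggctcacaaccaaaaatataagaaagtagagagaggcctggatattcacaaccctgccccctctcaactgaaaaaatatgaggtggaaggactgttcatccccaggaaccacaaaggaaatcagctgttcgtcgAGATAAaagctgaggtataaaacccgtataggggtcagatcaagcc

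RefSeq windows were found for 8 of the 10 genes, not for Tpsb2 and Tpsab1. A GATA word was found in 7 of the 8 windows, all but that of Mcpt8, and in 26.5% of 32851 promoter windows of the same length. The RefSeq start was not always the outermost annotated one. In the Mcpt8 window 76 of the 250 bases lie in an annotated exon of Mcpt8. The Hdc window lies inside the annotated gene. Ms4a2 held 3 such words and Slc18a2 held 2. The word was therefore present in windows of genes called lower (Cma1, Hdc, Ms4a2), called higher (Cpa3) and not passing (Slc18a2). The RUNX word TGTGGT was found in 4 of the 8 windows (14% of all), the E-box CANNTG in 6 (66.2% of all) and the STAT word TTCNNNGAA in 0 (7.02% of all), each on both strands. CG dinucleotides, the sites that Tet2 acts on when methylated, numbered 3 or fewer in 7 of the 8 windows and 9 in that of Slc18a2. The median over all windows was 6, and 37.8% of them held 3 or fewer. Matches are descriptions of the letters only.

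The other genes of the granule and IgE pathways came from lists described by counts, beside the 30.5% of kept genes called. Of 13 genes of protease storage and activation, all tested, 2 rose, 5 fell and 6 did not pass (median -0.04). Serglycin, Srgn, the proteoglycan that holds the proteases, had 2604 and 2851 TPM in WT and 1856 and 1858 TPM in the knockout-labelled libraries (log2 change -0.55, SE 0.050, adjusted p = 0.0016). Ndst2, the sulfotransferase that makes mast cell heparin, did not pass (-0.05, adjusted p = 0.60). Ctsc, which removes the activation peptide of chymases and granzymes, fell by 0.25 (adjusted p = 0.0078), a call lost without either knockout-labelled library (adjusted p = 0.055 and 0.074). The lysosomal cathepsins Ctsl (-0.82), Ctsb (-0.47) and Ctss (-0.56) also fell. The carrier of the proteases and 1 of their activators were thus lower, and the heparin enzyme was not called.

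Of 13 genes of amine synthesis, transport, breakdown and reception, 4 passed the filter, of which 2 rose and 1 fell (median 0.08). Slc6a4, the serotonin transporter, fell from 2.24 and 2.42 TPM to 0.99 and 1.00 TPM (log2 change -0.74, adjusted p = 0.0089), a call lost without either knockout-labelled library. Slc6a4 also needed its WT libraries to pass the filter, so its fall was partly fixed by the filter. Maoa, which oxidises serotonin, rose by 0.61 (adjusted p = 0.031), and Slc22a3, an organic cation transporter that carries histamine, rose by 0.18 (adjusted p = 0.028). With spike-in scaling neither rise passed (adjusted p = 0.060 and 0.60), and both were lost without either knockout-labelled library (adjusted p from 0.10 to 0.16), as was Maoa without WT replicate 2 (0.073) and Slc22a3 without WT replicate 1 (0.081). The histamine receptor Hrh2 did not pass (-0.01, adjusted p = 0.94).

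Of 18 genes of IgE receptor signalling, 5 rose, 5 fell and 8 did not pass (median 0.04), while 1 rose and 4 fell after spike-in scaling. Among all 11837 kept genes 2237 rose and 1369 fell as deposited. After spike-in scaling 634 rose and 1485 fell of all 11819 tested, and the list counts after that scaling, here and below, stand beside these. Beside Fcer1g, Syk, the kinase that binds the γ chain, fell by 0.23 (adjusted p = 0.0092), a call lost without either knockout-labelled library (adjusted p = 0.073 and 0.080). The phospholipases Plcg1 (0.69, adjusted p = 7.1e-04) and Plcg2 (0.21, adjusted p = 0.0090) rose, Plcg2 not with spike-in scaling (0.09, adjusted p = 0.45) nor without either knockout-labelled library (adjusted p = 0.063 and 0.092). Of 18 exocytosis genes tested, 5 rose, 6 fell and 7 did not pass (median -0.02), with Sytl2 among the rises passing the filter only through the knockout-labelled libraries, while 2 rose and 6 fell after spike-in scaling. Rab27b, a GTPase of secretory granules, rose by 0.62 and the SNARE gene Snap23 by 0.32, the latter not with spike-in scaling (0.20, adjusted p = 0.087). Stx11 (-0.34) and Lyst (-0.38), the granule-size gene mutated in beige mice, fell.

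Of 17 tested genes of lipid mediators and cytokines, 4 rose, 7 fell and 6 did not pass (median -0.12), while 1 rose and 7 fell after spike-in scaling. Il13, the type 2 cytokine, had 4.69 and 5.47 TPM in WT and 2.07 and 2.34 TPM in the knockout-labelled libraries (log2 change -0.92, SE 0.11, adjusted p = 0.0037). The chemokine Ccl4 (-0.95), Csf1 (-0.69) and the cyclooxygenase Ptgs1 (-0.27) were the others with the smallest p, and all fell.

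Transcription factors and receptors of these lineages included genes called in both directions. Of 19 tested factors, 9 rose, 3 fell and 7 did not pass (median 0.10), while 3 rose and 3 fell after spike-in scaling. Gata2, required for mast cells and basophils, had 73.0 and 74.4 TPM in WT and 71.4 and 73.7 TPM in the knockout-labelled libraries, with overlapping groups (adjusted p = 0.70). Mitf, which activates mast cell protease genes, had 10.6 and 10.8 TPM against 11.2 and 10.1 TPM, also overlapping (adjusted p = 0.90). Gata1, the erythroid and mast cell factor, fell from 3.01 and 2.97 TPM to 1.24 and 1.5 TPM (log2 change -0.75, SE 0.12, adjusted p = 0.0079). Its cofactor Zfpm1 rose by 0.66 (adjusted p = 8.5e-04) and Tal1 by 0.51 (adjusted p = 0.0018). Stat5b (0.30) and Lmo2 (0.34) rose, not with spike-in scaling (adjusted p = 0.11 and 0.070). Cebpa, which favours basophils over mast cells, was called higher by 0.15 (adjusted p = 0.033), a call lost with spike-in scaling (0.04, adjusted p = 0.78) and without any 1 of the 4 libraries (adjusted p from 0.058 to 0.20).

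Of 15 tested surface receptors, 8 rose, 3 fell and 4 did not pass (median 0.21), while 5 rose and 3 fell after spike-in scaling. Kit, the receptor for SCF, had 5.10 and 5.39 TPM in WT and 7.98 and 8.80 TPM in the knockout-labelled libraries (log2 change 0.59, SE 0.080, adjusted p = 0.0055). The integrin genes Itgb7 (1.04), Itga2b (0.97) and Itga4 (0.56) rose, of which Itgb7 and Itga4 encode the pair that guides mast cell progenitors to the gut. The common β chain of the IL-3 receptor, Csf2rb, fell (-0.31), as did the IL-33 receptor Il1rl1 (-0.30), the latter not without knockout-labelled replicate 1 (adjusted p = 0.058). Cd200r3, a basophil and mast cell surface gene, had 57.4 and 57.7 TPM in WT and 56.4 and 59.7 TPM in the knockout-labelled libraries and did not pass (adjusted p = 0.86). Mrgprb2, the peptide receptor of connective tissue mast cells, was listed at 0 in all 4 libraries. The mast cell genes differed widely in level. Fcer1a and Mcpt4 were below 1 TPM, like Mrgprb2, and Tpsab1 was at 2.13 TPM or below. Kit and Ms4a2 were below 10 TPM, and Cma1, Slc18a2 and Mitf were at 16.52 TPM or below. Cpa3, Hdc, Tpsb2, Gata2 and Il1rl1 were at 25.33 TPM or more in each library. The cells are labelled as acute myeloid leukemia cells and had Mpo, a myeloid progenitor gene, at 731 to 1037 TPM. Whether mast cells were among them was not tested.

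Of the markers of other cell types, those of neutrophils were mostly lower and the other lists were mixed. Of 14 neutrophil markers 12 fell, 1 (Mpo) rose and 1 did not pass, and their summed level was 48134 to 48704 TPM in WT and 25440 to 25815 TPM in the knockout-labelled libraries. Retnlg (-2.28), Ngp (-1.68), Camp (-2.15) and Ltf (-0.92), genes of maturing neutrophils, had the smallest p and fell. Of 10 eosinophil markers 4 were tested, of which 3 fell and 1 rose. Of the falls, that of Ear2 (1.28 and 1.30 TPM in WT, listed at 0 in both knockout-labelled libraries) was partly fixed by the filter, which it passed only through WT. The falls of Prg2 and Alox15 were partly fixed too, since both needed their WT libraries to pass it. Alox15 had 2.79 and 2.57 TPM in WT and 0.90 and 1.04 TPM in the knockout-labelled libraries. The summed level of the 10 was 50.5 to 55.7 TPM in WT and 48.9 to 50.1 TPM in the knockout-labelled libraries. Most of that sum was Siglecf, a surface lectin and the gene that rose, with 31.8 and 36.0 TPM in WT and 47.6 and 45.9 TPM in the knockout-labelled libraries. The eosinophil granule genes Epx and Prg3 were at 0.33 TPM or below in every library, and Prg2, which basophils and mast cells also express, fell from 13.7 and 14.7 TPM to 0.93 and 1.46 TPM (log2 change -2.80, adjusted p = 2.5e-04). Of 14 monocyte and macrophage markers 4 rose, 3 fell and 7 did not pass (summed level 3098 to 3221 TPM against 2610 to 2632 TPM). Of 7 tested megakaryocyte markers 1 rose (Gp5, which passed the filter only through the knockout-labelled libraries) and 3 fell (190 to 192 TPM against 150 to 158 TPM), of 3 erythroid 1 rose (208 to 210 TPM against 276 to 299 TPM), and of 3 lymphoid 2 rose and 1 fell (54.7 to 55.6 TPM against 67.8 to 71.5 TPM). Among lymphoid genes, Cd3e, Ms4a1 and Ncr1 were listed at 0 throughout. Of 10 housekeeping genes 5 rose and 0 fell, while 0 rose and 0 fell after spike-in scaling, where 634 of all 11819 tested genes rose and 1485 fell. The part of these markers in the changes of the granule genes was not tested. In bulk RNA, fewer cells of a type and less RNA per cell cannot be told apart.

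**Figure D4:**
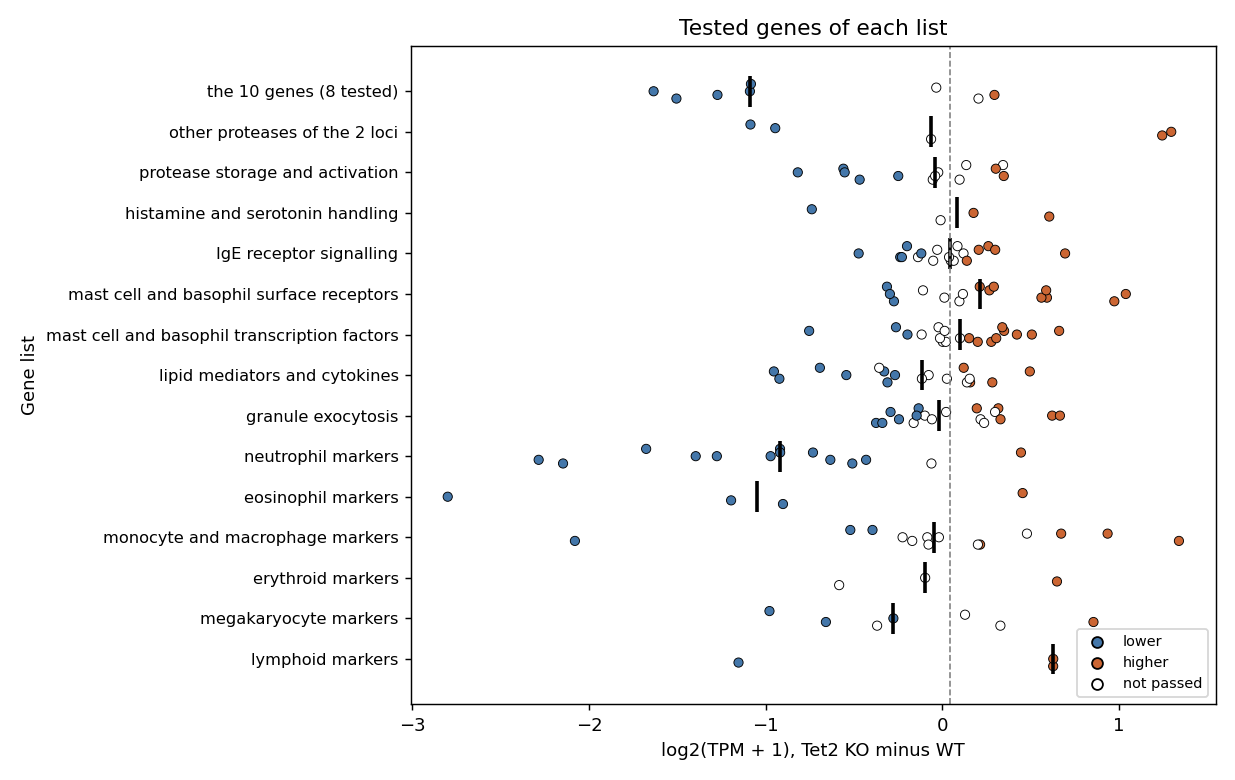
Change in log2(TPM + 1), knockout-labelled minus WT, of each tested gene by list; blue is lower, orange higher and white not passed, black bars are list medians, and the dashed line is the median of all kept genes at 0.04. The 5 genes called lower among the 10 lie at -1.08 or below, and the receptor and transcription factor lists have medians of 0.21 and 0.10.

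Facts of the libraries bear on every value. Tet2 itself had 35.1 and 39.95 TPM in WT and 53.5 and 52.8 TPM in the knockout-labelled libraries (log2 change 0.50, adjusted p = 0.0054); a value for the whole gene does not check a deletion of exons 8 to 10. Of the genes called changed, 62.0% were higher as deposited, 48.6% with trimmed-mean scaling and 29.9% with spike-in scaling, which lowered the median of all genes by 0.11 to -0.07. The 5 falls among the 10 genes passed under each of these scalings. With 2 libraries against 2, an exact permutation test cannot go below p = 0.333, so each call depends on limma's pooling of the spread over genes.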

How the data were processed

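The authors deposited a single table of TPM values (relative transcript abundance, corrected for transcript length) for 4 libraries. The unit was read from the values, whose column sums are equal. STAR, RSEM and mm10 are named, per the submitters' processing notes; versions, annotation and strand setting are not given in the sources used here. TPM keep no depth, so read numbers are unknown and no counting interval is given. The 92 ERCC spike-in entries were left out, and a gene was kept where 2 or more libraries reached 1 TPM (11837 genes). The groups were compared on log2(TPM + 1) by limma (version 3.58.1, R 4.3.3), with a variance trend, no replicate block, and two-sided p adjusted by Benjamini-Hochberg over all kept genes. A gene was called at an adjusted p under 0.05. All standard errors (SE), 95% intervals and adjusted p come from this fit, which was tested on simulated data.

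The members, the 15 further lists and the tests were chosen with earlier results of these data known. Named genes are the 10 members, 20 fixed genes and up to 4 genes per list with the smallest p. Positions came from GENCODE M21 (GRCm38) and promoters from RefSeq (GRCm38.p6), handled with Biopython 1.88. The alternatives were other scalings, filters, pseudocounts and variance models, a replicate block, stricter thresholds and leaving out each library, where a lone library is assumed to vary like the other group. The labels do not say that same-numbered libraries were paired.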

Additional observations from a re-analysis of the deposited data

How the results depend on the processing

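The falls of Tpsb2, Cma1, Hdc and Ms4a2 passed in 16 of 16 alternative fits and that of Tpsab1 in the 13 that kept it. Genes called lower among the 10 numbered 4 to 5 without a library. Genes called higher numbered 0 with spike-in scaling, 0 at a log2 change of at least 1, and 0 to 2 without a library. Of all genes, 2119 were called with spike-in scaling, 1505 at an adjusted p under 0.01, 231 at a log2 change of at least 1, and 1239 to 3255 without a library, against 3606. With the replicate block 5 were lower and 1 higher of the 10, and 3071 genes were called. The correlation of same-numbered deviations was -0.11, and with numbers crossed, chosen after seeing the data, 5 and 1 of the 10 and 3463 genes were called. The block ended the calls of Cebpa and Slc22a3 (adjusted p = 0.053 each) among the named genes. As deposited, the summed TPM of the 10 genes changed by 0.08 on the log2 scale, and by -0.55 without Cpa3. Cd200r3 turned to -0.012 with quantile, -0.10 with spike-in and -0.033 with trimmed-mean scaling. Without a library, Cd200r3 ranged from -0.028 to 0.052, Gata2 from -0.044 to 0.0010, Hrh2 from -0.11 to 0.092, Mitf from -0.084 to 0.057 and Ndst2 from -0.13 to 0.021. Hba-a1 ranged from -2.66 to 1.497 without a library and was 0.016 with a pseudocount of 5. In knockout-labelled replicates 1 and 2 Hba-a1 was listed at 0 and 16.9 TPM, and the other α-globin entry, Hba-a2, at 8.79 and 0 TPM. In WT Hba-a1 had 4.94 and 5.77 TPM and Hba-a2 was listed at 0. Whether reads were split between the 2 entries was not tested. Of 540 counts of listed genes, 438 stayed within 1.5 times and 102 moved further. Depth is unknown, so genes below 1 TPM cannot be given a detection limit.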
